A study of Mus musculus with 18 samples.

Results

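Effector regulatory T cells that still expressed the Id3 reporter (Id3+ eTR) were compared between peripheral lymph node and spleen of the same 3 mice. The comparison rests on 6 of the 18 libraries of the series, 3 from lymph node and 3 from spleen, and covers all 12445 genes with enough counts to test among 37991 in the count table. The mice, numbered 84, 86 and 87, were littermates on a C57BL/6 background with GFP reporting Id3 and mRFP reporting Foxp3. Their age is not given in the labels. Id3+ eTR were the CD44-high cells, and each library came from 500 sorted CD4+ T cells, amplified as cDNA. The other groups used here came from the same mice and tissues: Id3+ central TR (Id3+ cTR, CD44-low) and effector TR without signal of the Id3 reporter (Id3- eTR), with 3 libraries of each per tissue. All groups, the cTR included, carry both reporters, so no library comes from cells without them. The series is about stepwise differentiation of TR toward tissue residence along with changing Id3 expression, and the comparison asks how far the middle population differs between 2 lymphoid organs.

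Regulatory T cells carry the transcription factor Foxp3 and restrain other immune cells. Central TR recirculate between blood and lymphoid organs with the help of CCR7 and the egress receptor S1PR1, whose gene is kept on by the transcription factor Klf2. Effector TR lose this programme after antigen encounter and gain activation receptors such as ICOS and receptors for entry into tissues. Id3 is an inhibitor of the E proteins, a family of transcription factors that includes the products of Tcf3, Tcf4 and Tcf12. Lymph nodes are entered across high endothelial venules and drained by lymph, whereas the spleen is perfused by blood and holds red pulp rich in erythrocytes.

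The labelled cell type was checked against its markers. All 9 defining markers (Cd3d, Cd3e, Cd3g, Trac, Cd4, Foxp3, Il2ra, Ctla4 and Ikzf2) were detected in every one of the 6 libraries. Foxp3 stood at 237, 286 and 252 CPM (counts scaled to library size and composition) in lymph node of mice 84, 86 and 87 and at 374, 246 and 249 CPM in spleen. The groups overlapped, and the log2 difference of Foxp3 was -0.16 ± 0.14 (SE; lymph node minus spleen throughout; adjusted p = 0.687, edgeR quasi-likelihood). Foxp3 shares 18.6% of its exonic bases with Flicr and 12.9% with Ccdc22 on the opposite strand, and the library kit is not stated to mark strand. Cd4, Id3 and Cd44, also used in the sort, did not pass the test either: Cd4 -0.24 ± 0.16 (adjusted p = 0.599), Id3 0.26 ± 0.15 (0.51) and Cd44 0.54 ± 0.24 (0.38). Library totals were 2111016 to 2824045 counts in lymph node and 2439228 to 3153325 in spleen, with 14421 to 15045 genes detected. The spleen library of mouse 84 stood apart: the mean chi-square per gene between its counts and those of the other spleen libraries was 22.3 against both, and 6.60 to 7.32 in the other pairs within a tissue. In bulk libraries, fewer cells of a type and less RNA per cell cannot be told apart.

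Lymph node Id3+ eTR held more mRNA of Icos, Rgs2, Ccr6 and Il1r2, among others, and less of Itga4, Satb1, Klf2, Klf3 and S1pr1. Of the 12445 genes tested, 36 passed an adjusted p of 0.05 (0.289%; edgeR quasi-likelihood, Benjamini-Hochberg), 14 higher in lymph node (0.112%) and 22 lower (0.177%). At an unadjusted p under 0.05 there were 1477 (11.9%), 609 higher and 868 lower. In all 36 genes the 3 lymph node libraries lay on 1 side of the 3 spleen libraries and the 3 mice moved the same way. Such a lack of overlap was seen in 7.14% of all tested genes upward and in 6.63% downward. Leaving aside Epdr1 and Slc40a1, which had 0 counts in 1 tissue, the size of the log2 difference ran from 0.61 (Tox) to 3.48 (Apol9b) in the genes higher in lymph node and from -0.47 (Cyfip2) to -2.63 (Asb2) in those lower. The count depends on single libraries: it was 10 without the spleen library of mouse 84 (8 of them among the 36), 12 without spleen of mouse 86, 46 without spleen of mouse 87, and 5, 16 and 13 without lymph node of mice 84, 86 and 87. Icos, Rgs2, Apol9a, Itga4 and Satb1 passed in each of these 6 refits, no gene of the 36 changed sign, and the other 31 lost their call in at least 1. Gimap7 and St3gal4 kept it in 5 of the 6, S1pr1 and Klf3 in 2, Ccr6, Il1r2 and Klf2 in 1 and Gcnt1 in 0. Without spleen of mouse 84 the edgeR adjusted p was 0.0738 for Klf3, 0.0865 for Ccr6 and S1pr1, 0.105 for Il1r2, 0.111 for Klf2 and 0.12 for Gcnt1. A fit on the 6 libraries alone called 0 genes by edgeR, with 898 at an unadjusted p under 0.05, and DESeq2 on all 18 libraries called 202, all 36 among them.

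**Figure D1:**
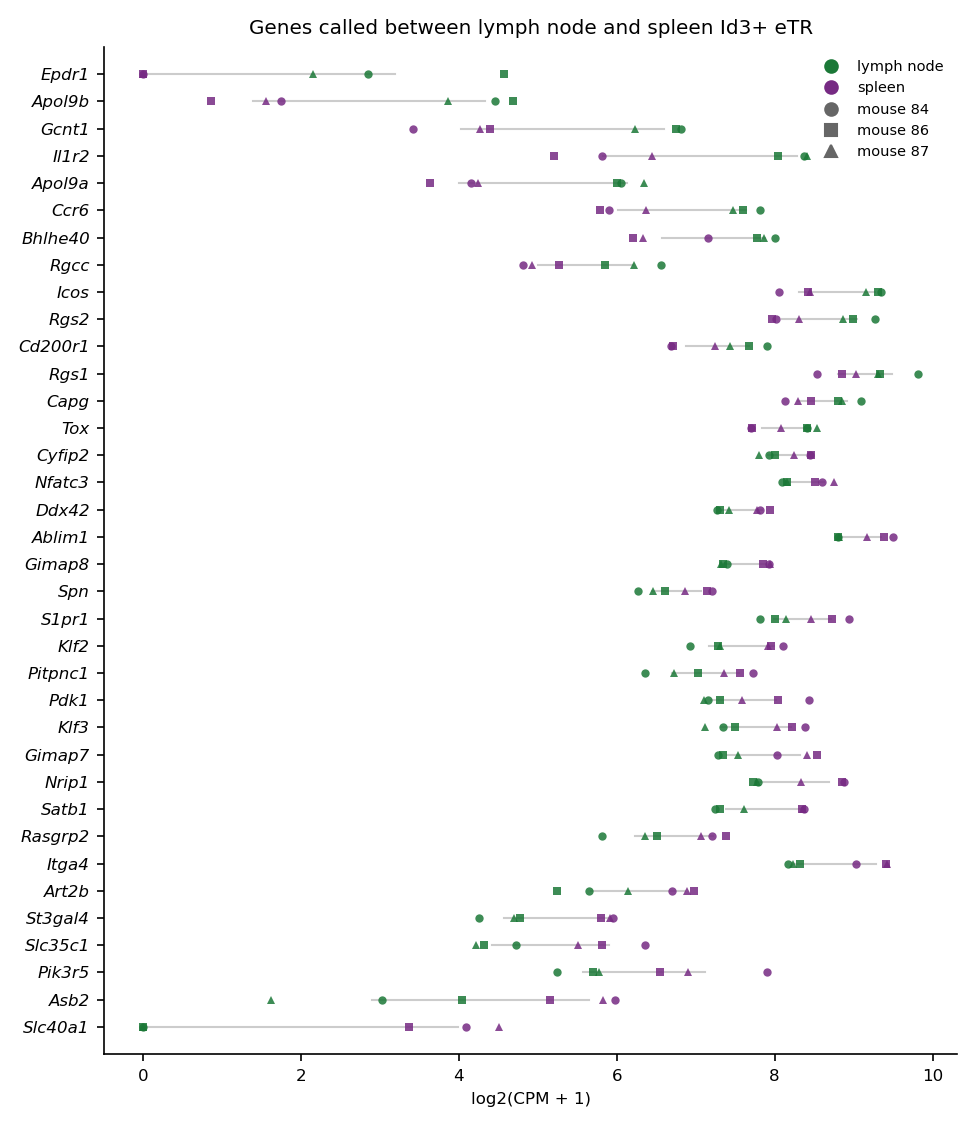
The 36 genes called between the tissues are plotted by library as log2(CPM + 1), ordered by log2 difference, with green points for lymph node, purple points for spleen, a marker shape for each mouse and a grey line joining the tissue means. In all 36 genes the green and purple points do not overlap, and Epdr1 in spleen and Slc40a1 in lymph node sit at 0 in all 3 libraries.

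Of the 14 genes higher in lymph node, no gene list held more than 3. Apol9a, Apol9b, Cd200r1, Rgcc and Epdr1 were in none of the lists, and Icos and Il1r2 were in several. Of 18 tested T cell receptor-induced genes 1, Icos, was called higher (0.112% of all tested genes) and 0 lower (0.177%), with a median log2 difference of 0.23. Icos, the co-stimulatory receptor that supports effector and follicular TR, was at 653, 633 and 569 CPM in lymph node of mice 84, 86 and 87 and at 264, 341 and 349 CPM in spleen. Every lymph node library exceeded every spleen library, with a log2 difference of 0.96 ± 0.11 (adjusted p = 0.00039). Rgs2, a regulator of G protein signalling, was at 618, 510.1 and 467 CPM in lymph node and 257, 249.9 and 315 CPM in spleen, so its highest spleen library stayed well under its lowest lymph node library (0.96 ± 0.11, adjusted p = 0.00039). Rgs1, a relative that dampens chemokine receptor signals, was at 903, 646 and 631 CPM against 372, 461 and 522 CPM. Its log2 difference was 0.69 ± 0.14 (adjusted p = 0.0464), and with mouse as a block the adjusted p was 0.0637. Tox, a nuclear factor of chronically stimulated and follicular T cells, stood at 341, 338 and 371 CPM against 206, 209.6 and 271 CPM (0.61 ± 0.10, adjusted p = 0.0217). Bhlhe40, a stress- and receptor-induced repressor, was at 257, 219 and 232 CPM in lymph node and 142, 72.8 and 79.7 CPM in spleen, where mouse 84 was the highest of the 3 (1.26 ± 0.24, adjusted p = 0.0397). Capg, an actin-capping protein listed among core TR genes, differed by 0.62 ± 0.11 (adjusted p = 0.0304) and Cd200r1, an inhibitory receptor, by 0.78 ± 0.15 (adjusted p = 0.0464, or 0.0587 with the block). Rgcc, a regulator of the cell cycle, was higher by 1.25 ± 0.25 (adjusted p = 0.0464, or 0.0587 with the block).

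Il1r2 encodes the decoy receptor that binds interleukin-1 without signalling. It was at 331, 263 and 340.3 CPM in lymph node and 55.3, 35.8 and 86.3 CPM in spleen, with no overlap and the mouse 87 library the highest of each tissue (2.39 ± 0.44, adjusted p = 0.0368). Ccr6, the receptor for the chemokine CCL20, was at 225, 193 and 177 CPM in lymph node and 59.0, 54.1 and 82.0 CPM in spleen. Its lowest lymph node value was above its highest spleen value, and the log2 difference was 1.61 ± 0.28 (adjusted p = 0.0261). Gcnt1 makes the branched core 2 O-glycans that carry selectin ligands, and stood at 111, 106 and 74.1 CPM against 9.72, 19.9 and 18.3 CPM (2.61 ± 0.50, adjusted p = 0.0442). Apol9a, of the apolipoprotein L family, was at 65.5, 63.4 and 80.0 CPM in lymph node and 16.8, 11.4 and 17.9 CPM in spleen (2.18 ± 0.28, adjusted p = 0.00169), and its near-identical copy Apol9b at 21.0, 24.7 and 13.5 CPM against 2.35, 0.814 and 1.94 CPM (3.48 ± 0.69, adjusted p = 0.0464, or 0.0567 with the block). The split of reads between these 2 copies is uncertain. Epdr1, an ependymin-related secreted protein, had 0 counts in all 3 spleen libraries and 6.21, 22.8 and 3.46 CPM in lymph node, at least 28.9-fold higher when 3 counts over the group are set in place of 0 (adjusted p = 0.028).

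Of the 22 genes lower in lymph node, 5 belong to the list of recirculation genes, more than to any other list, and 17 do not. Itga4, the alpha 4 integrin subunit that binds VCAM-1 and, with beta 7, MAdCAM-1, was at 287, 320.0 and 301 CPM in lymph node and 521, 680.4 and 685 CPM in spleen. The groups were far apart, and the log2 difference was -1.05 ± 0.12 (adjusted p = 0.00039). Exons of Itga4 share 8.0% of their bases with Cerkl on the other strand. S1pr1, the sphingosine-1-phosphate receptor that guides exit from lymphoid organs, was at 224, 256 and 282 CPM in lymph node and 491, 423 and 352 CPM in spleen, highest in spleen of mouse 84 (-0.73 ± 0.13, adjusted p = 0.0261). Klf2, the factor that drives S1pr1, was at 120.4, 155 and 157 CPM against 274, 248 and 241 CPM (-0.82 ± 0.15, adjusted p = 0.0397). Its relative Klf3, a repressor of the same family, was at 161, 179.7 and 138 CPM against 334, 297 and 259.6 CPM, again without overlap (-0.90 ± 0.15, adjusted p = 0.0183). Satb1, a chromatin organiser of resting T cells, had 150.5, 157 and 195 CPM in lymph node and nearly the same value in the 3 spleen libraries, 331, 325 and 328 CPM (-0.97 ± 0.12, adjusted p = 0.00169). Outside that list, Rasgrp2, the Rap1 activator that switches on integrins, fell by 0.98 ± 0.18 on the log2 scale (adjusted p = 0.0397).

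Of the 21 recirculation genes listed, all tested, 0 were called higher and 5 lower (Itga4, Satb1, Klf3, S1pr1 and Klf2). Over all tested genes 0.112% were called higher and 0.177% lower. Another count shows 10 of the 21 with all lymph node libraries below all spleen libraries and 1 with all above. The shares over all tested genes were 6.63% below and 7.14% above. The median log2 difference of the list was -0.40, with -0.49, -0.21 and -0.24 in mice 84, 86 and 87, beside -0.0043 over all genes tested. Without the spleen library of mouse 84 the list's median was -0.34 and 2 of its genes were called lower. Ccr7 was at 478, 412 and 443 CPM in lymph node and 410.1, 397 and 351 CPM in spleen, so the tissues came within a few CPM of each other without overlapping (0.20 ± 0.15, adjusted p = 0.643). Of the 28 tested genes for tissue and inflammatory homing, 2 were called higher (Ccr6 and Gcnt1) and 0 lower, with a median of 0.46. In this list 9 genes lay wholly above in lymph node and 3 wholly below. Mouse medians were 0.65, 0.34 and 0.10, and without the spleen library of mouse 84 none of the 28 passed. Itgae, which makes the integrin that binds E-cadherin, was at 269.9, 222 and 219 CPM against 107, 32.1 and 59.8 CPM, and its difference of 1.82 ± 0.43 missed the threshold (adjusted p = 0.0857) but passed it with mouse as a block (adjusted p = 0.0394). Itgb8, whose integrin activates TGF-beta, also missed it (1.04 ± 0.23, adjusted p = 0.068).

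**Figure D2:**
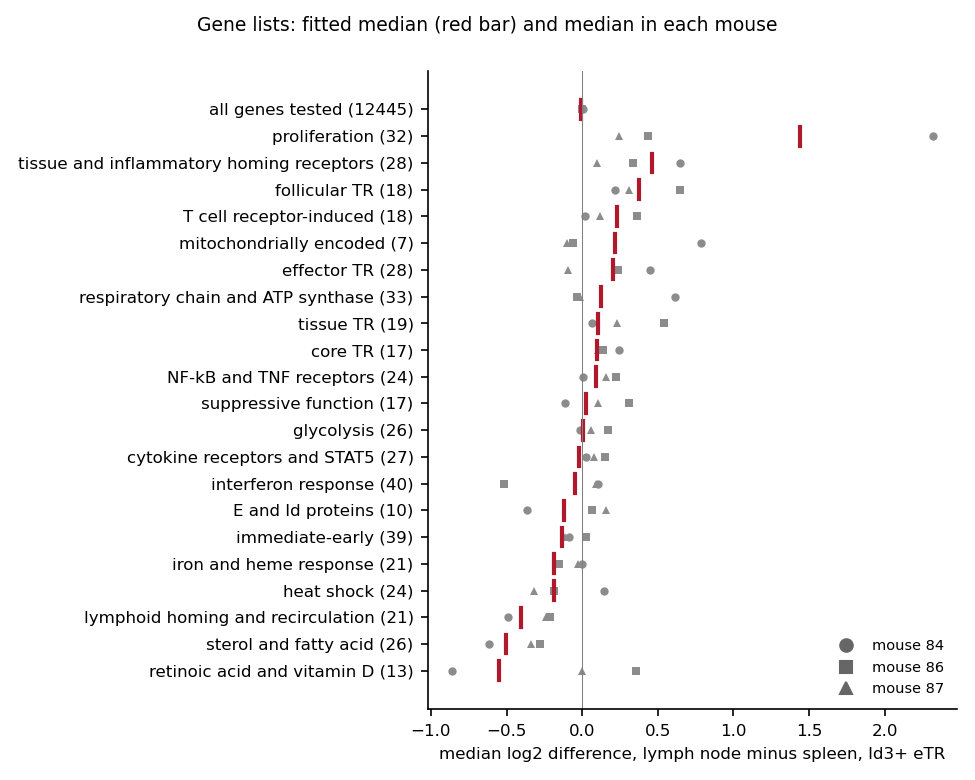
Each line is a gene list with its number of tested genes. The red bar marks the fitted median log2 difference (lymph node minus spleen) and the grey points the median in each mouse. Recirculation genes lie below 0 and tissue homing genes above 0 in all 3 mice, while the proliferation list lies far above 0 in mouse 84 and at 0.43 and 0.24 in the others.

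St3gal4, a sialyltransferase that completes selectin ligands, was at 18.2, 26.3 and 24.9 CPM in lymph node and 61.0, 54.5 and 59.1 CPM in spleen, a difference of -1.32 ± 0.20 (adjusted p = 0.00666). Of its exonic bases, 14.1% overlap a gene on the other strand (4930581F22Rik). Slc35c1, the GDP-fucose carrier needed for fucosylated ligands, was at 25.3, 18.9 and 17.7 CPM against 81.1, 55.3 and 44.7 CPM (-1.55 ± 0.31, adjusted p = 0.0464, or 0.0574 with the block). Spn, which encodes sialomucin CD43, differed by -0.63 ± 0.13 (adjusted p = 0.0464, or 0.0574 with the block). Art2b, a surface ADP-ribosyltransferase of T cells, was at 49.2, 36.7 and 69.6 CPM against 103, 125 and 118 CPM (-1.15 ± 0.22, adjusted p = 0.0464), and reads of its close relative Art2a-ps may be split with it.

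Gimap7 and Gimap8 belong to the GTPases of immunity-associated protein family, which supports lymphocyte survival. Gimap7 was at 155, 162 and 185 CPM in lymph node and 259, 370.3 and 339.7 CPM in spleen (-0.95 ± 0.14, adjusted p = 0.00629), and Gimap8 differed by -0.56 ± 0.09 (adjusted p = 0.0217). Nrip1, a nuclear receptor corepressor, was at 221, 209.9 and 219 CPM against 471, 461 and 321 CPM, with the spleen library of mouse 87 nearest to lymph node (-0.95 ± 0.16, adjusted p = 0.0253). Pik3r5, a regulatory subunit of the G protein-coupled PI3-kinase gamma, was at 36.8, 51.0 and 53.7 CPM against 239, 92.4 and 119 CPM. The spleen library of mouse 84 held by far the highest value of that gene (-1.67 ± 0.33, adjusted p = 0.0464, and a log2 difference of -1.15 with adjusted p = 0.132 without it). Pdk1, a kinase that limits pyruvate oxidation, was at 141, 157 and 136 CPM against 344, 262 and 190.4 CPM (-0.87 ± 0.18, adjusted p = 0.0481, or 0.0567 with the block). Asb2, the substrate subunit of a ubiquitin ligase, was at 7.17, 15.5 and 2.08 CPM against 62.0, 34.6 and 56.0 CPM (-2.63 ± 0.53, adjusted p = 0.0481). The remaining genes lower in lymph node were Pitpnc1, a phosphatidylinositol transfer protein (-0.83 ± 0.15, adjusted p = 0.0349), and Nfatc3, Cyfip2, Ablim1 and Ddx42, whose log2 differences lay between -0.55 and -0.47. With the block the last 4 missed the threshold, at adjusted p = 0.0567, 0.0522, 0.0556 and 0.0603 in that order.

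Upstream sequences of 5 called genes are shown because they include the Klf2 and Klf3 genes themselves and genes that moved with and against them. They were taken from RefSeq (GRCm38.p6), which held 50 windows for 29 of the 36 called genes, since some genes have several start sites. Each is the 250 bases before the start site, 5′ to 3′ on the gene's strand, with matches to the KLF/SP motif GGGNGGNGC on either strand in capitals. The windows are Klf2 at chr8:72318812-72319061, plus strand, Klf3 at chr5:64803271-64803520, plus strand, Spn at chr7:127137824-127138073, minus strand, Itga4 at chr2:79255176-79255425, plus strand and Rgs2 at chr1:144004150-144004399, minus strand.
Klf2: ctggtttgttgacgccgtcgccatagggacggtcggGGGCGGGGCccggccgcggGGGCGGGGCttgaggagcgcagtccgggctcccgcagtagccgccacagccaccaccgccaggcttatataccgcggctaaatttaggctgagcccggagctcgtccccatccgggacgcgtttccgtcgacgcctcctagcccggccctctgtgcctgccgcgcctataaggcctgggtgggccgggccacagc
Klf3: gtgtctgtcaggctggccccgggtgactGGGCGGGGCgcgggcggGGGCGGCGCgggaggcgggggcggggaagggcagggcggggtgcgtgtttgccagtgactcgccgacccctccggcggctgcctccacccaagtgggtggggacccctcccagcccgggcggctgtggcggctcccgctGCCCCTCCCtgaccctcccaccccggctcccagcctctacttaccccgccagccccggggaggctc
Spn: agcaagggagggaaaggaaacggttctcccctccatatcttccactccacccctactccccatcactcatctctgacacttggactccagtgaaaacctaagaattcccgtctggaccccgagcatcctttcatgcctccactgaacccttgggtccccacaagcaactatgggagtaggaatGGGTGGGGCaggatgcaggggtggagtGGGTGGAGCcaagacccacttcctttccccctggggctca
Itga4: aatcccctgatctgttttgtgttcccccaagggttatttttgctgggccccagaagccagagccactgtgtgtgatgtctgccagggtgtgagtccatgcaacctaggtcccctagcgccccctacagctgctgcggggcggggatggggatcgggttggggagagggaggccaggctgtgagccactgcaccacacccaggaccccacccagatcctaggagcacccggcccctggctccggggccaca
Rgs2: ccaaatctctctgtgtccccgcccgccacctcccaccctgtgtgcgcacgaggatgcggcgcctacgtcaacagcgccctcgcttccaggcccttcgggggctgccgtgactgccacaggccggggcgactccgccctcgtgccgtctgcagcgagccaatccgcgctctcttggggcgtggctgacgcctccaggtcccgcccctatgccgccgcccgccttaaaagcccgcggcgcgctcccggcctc
Klf2 and Spn each held 2 matches and Klf3 held 3, while Itga4 and Rgs2 held none. Counting a gene where any of its windows held the motif, 14 of 20 genes lower in lymph node and 4 of 9 genes higher had it, beside 44.8% of the 8840 tested genes with a window and 26.6% of all 27025 genes with one. The AP-1 motif TGANTCA was found for 4 of the 29 genes (5.01% of tested genes) and the cyclic AMP response element TGACGTCA for 0 (3.11%). A CArG box was found for Asb2 alone (1 of 29; 1.36% of tested genes). Motifs were searched on both strands, and a match is a run of letters, not a measured site.

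Effector and follicular TR genes were read beside the 0.112% of all tested genes called higher. Of all tested genes, 7.14% lay wholly above in lymph node and 6.63% wholly below. Among 28 effector TR genes 1 was called higher (Icos) and 0 lower, 9 lay wholly above in lymph node and 2 wholly below, and the median log2 difference was 0.21. By mouse the median was 0.45, 0.24 and -0.09 in mice 84, 86 and 87, so mouse 87 went the other way. Without the spleen library of mouse 84 it was 0.09. Of 18 follicular TR genes 3 were called higher (Icos, Tox and Il1r2), 6 lay wholly above and 0 wholly below, with a median of 0.38. The follicular median was 0.21, 0.65 and 0.31 in mice 84, 86 and 87. Without the spleen library of mouse 84, 1 gene of the follicular list was called higher and its median was 0.43. That list is not independent of the one before, since Icos and Pdcd1 stand in both. Of 19 tissue TR genes 2 were called higher (Il1r2 and Bhlhe40), 0 lower, and the median was 0.10. Without the spleen library of mouse 84, 1 tissue TR gene was called higher and the median was 0.31. For 24 genes of NF-kB and the TNF receptors, 40 interferon-response genes and 17 genes of suppressive function, 0 were called in either direction. In these lists 6, 0 and 5 genes in that order lay wholly above in lymph node and 1, 3 and 0 wholly below. Their medians were 0.09, -0.05 and 0.02.

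Among the Id and E protein genes 0 of 10 tested were called. Id3 stood at 289, 296 and 304 CPM in lymph node and 204, 261 and 277 CPM in spleen, without overlap, but as given above its difference did not pass. Id2, the Id protein that effector T cells gain, was at 214, 172 and 211 CPM against 102, 121 and 156 CPM, and its difference of 0.66 ± 0.15 just missed the threshold (adjusted p = 0.0701). Tcf3, which encodes the E2A proteins, was at 38.2, 41.4 and 36.7 CPM against 143, 35.8 and 57.9 CPM, by far highest in the spleen library of mouse 84. Its difference of -1.03 ± 0.38 (adjusted p = 0.308) was -0.27 without that library (adjusted p = 0.922). Tcf12 differed by -0.19 ± 0.20 (0.761), and Tcf4 by 1.07 ± 0.76 (0.621). Id1 was low, with a difference of -0.04 ± 1.06 (0.995).

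The 6 libraries were placed on the scale from central to Id3- effector TR. Genes were taken that differed between Id3- eTR and Id3+ cTR in the same direction in both tissues by the same edgeR test, a choice that used no Id3+ eTR library except through the shared estimate of spread. Of all genes, 7.17% were called higher and 5.09% lower in Id3- eTR in spleen, and 8.26% and 4.68% in lymph node. Over all 12445 genes tested, 6161 had a log2 difference above 0 between the tissues in Id3+ eTR and 6284 below. Of the 633 genes higher in Id3- eTR, 436 were above 0, with a median of 0.22 (0.25, 0.26 and 0.17 in mice 84, 86 and 87). Of the 311 genes lower in Id3- eTR, 228 were below 0, with a median of -0.18 (-0.18, -0.20 and -0.14), and over the other 11501 genes the median was -0.01. Of the 14 genes called higher in lymph node 11 were in the first set, and of the 22 called lower 8 were in the second and 1, Asb2, in the first. The first set holds 633 and the second 311 of the 12445 genes tested. The median gain of the first set over Id3+ cTR of the same tissue was 58.1% ± 4.42 (SD, n = 3) of the step to Id3- eTR in lymph node and 49.2% ± 4.07 in spleen. By mouse it was 63.2, 55.2 and 55.9% in lymph node of mice 84, 86 and 87 and 52.3, 44.6 and 50.6% in spleen, so these shares did not overlap. The gain itself did overlap, at 1.261, 1.102 and 1.115 on the log2 scale in lymph node and 1.109, 0.945 and 1.073 in spleen. The step it was divided by was 1.995 in lymph node and 2.120 in spleen. The loss of the second set was 45.0% ± 1.33 of its step in lymph node and 38.5% ± 3.16 in spleen. On the log2 scale that loss was -0.513, -0.484 and -0.492 in lymph node and -0.444, -0.377 and -0.422 in spleen, without overlap. With the tissues exchanged within each of the 3 mice, the exact two-sided sign-flip permutation test gives p = 0.25 for each share, the smallest that 3 pairs allow. With all 6 libraries exchanged freely, which sets the pairing aside, the exact p is 0.1, again the smallest possible. Each tissue's step was a fixed value from the means of the other groups, so its error enters neither the SD nor these p-values.

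**Figure D3:**
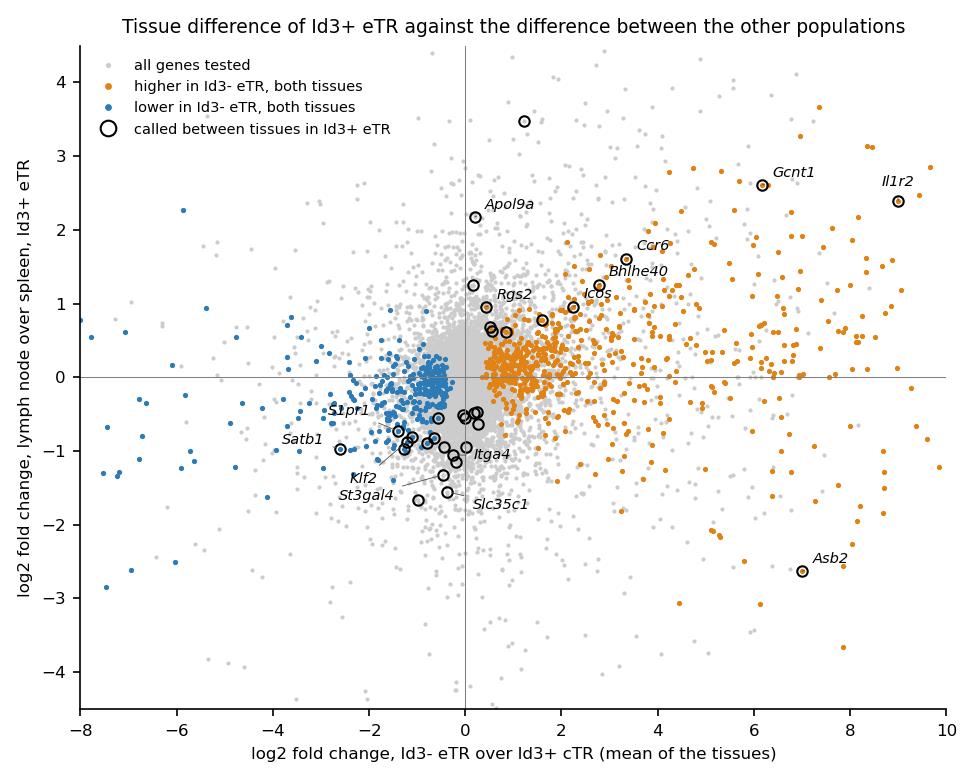
Every dot is a gene, with the log2 fold change of Id3- eTR over Id3+ cTR (mean of both tissues) across and the log2 fold change of lymph node over spleen in Id3+ eTR upward. Orange and blue mark the 633 and 311 genes higher and lower in Id3- eTR in both tissues, circles mark the called genes, and 101 of the 12445 genes lie outside the axes. Of the circled genes above 0, 11 of 14 are orange, beside 633 of all 12445 genes.

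The called genes were then set beside the other populations of the same mice. In Id3- eTR 18 genes were higher in lymph node (0.145%) and 20 lower (0.161%), and in Id3+ cTR 1 gene was higher, Apol9a (0.00804%), and 0 lower. Of the 36 genes, 28 had the same sign in Id3- eTR and 11 were called there (Icos, Apol9a, Gcnt1, Itga4, Gimap7, Klf3, Gimap8, Nrip1, Art2b, Slc40a1 and Asb2), and 30 had the same sign in Id3+ cTR. In lymph node, Icos averaged 236 ± 17.8 CPM (SD, n = 3) for cTR, 618 ± 43.7 for Id3+ eTR and 1264 ± 75.5 for Id3- eTR, and 193 ± 16.4, 318 ± 47.2 and 812 ± 50.8 CPM in spleen. Itga4 averaged 402 ± 8.93, 303 ± 16.7 and 183 ± 28.9 CPM in lymph node in that order and 493 ± 39.7, 629 ± 93.6 and 763 ± 57.3 CPM in spleen. Between cTR and Id3- eTR it fell by 1.13 ± 0.12 on the log2 scale in lymph node (adjusted p = 4.85e-06) and rose by 0.63 ± 0.12 in spleen (adjusted p = 0.00134). A test of whether the tissue difference itself differed called 0 genes against Id3- eTR (750 at unadjusted p under 0.05, 6.03%; DESeq2 29) and 0 against Id3+ cTR (1180, 9.48%; DESeq2 66) by edgeR. Among the 36 genes, Itga4 was nearest to the threshold of the test against Id3- eTR. Its tissue difference was -1.05 ± 0.12 in Id3+ eTR and -2.06 ± 0.12 in Id3- eTR (adjusted p of the gap = 0.0558). Next of the 36 was Satb1, with -0.97 ± 0.12 against 0.09 ± 0.13 (-1.06 ± 0.18, adjusted p = 0.0558), and then St3gal4, with -1.32 ± 0.20 against 0.18 ± 0.19 (-1.50 ± 0.27, adjusted p = 0.0809). Outside the 36, Ahcyl2 and Coro2a had the same adjusted p of 0.0558 and Irf2bp2 one of 0.0774. No gene is therefore shown to differ between tissues in Id3+ eTR alone.

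**Figure D4:**
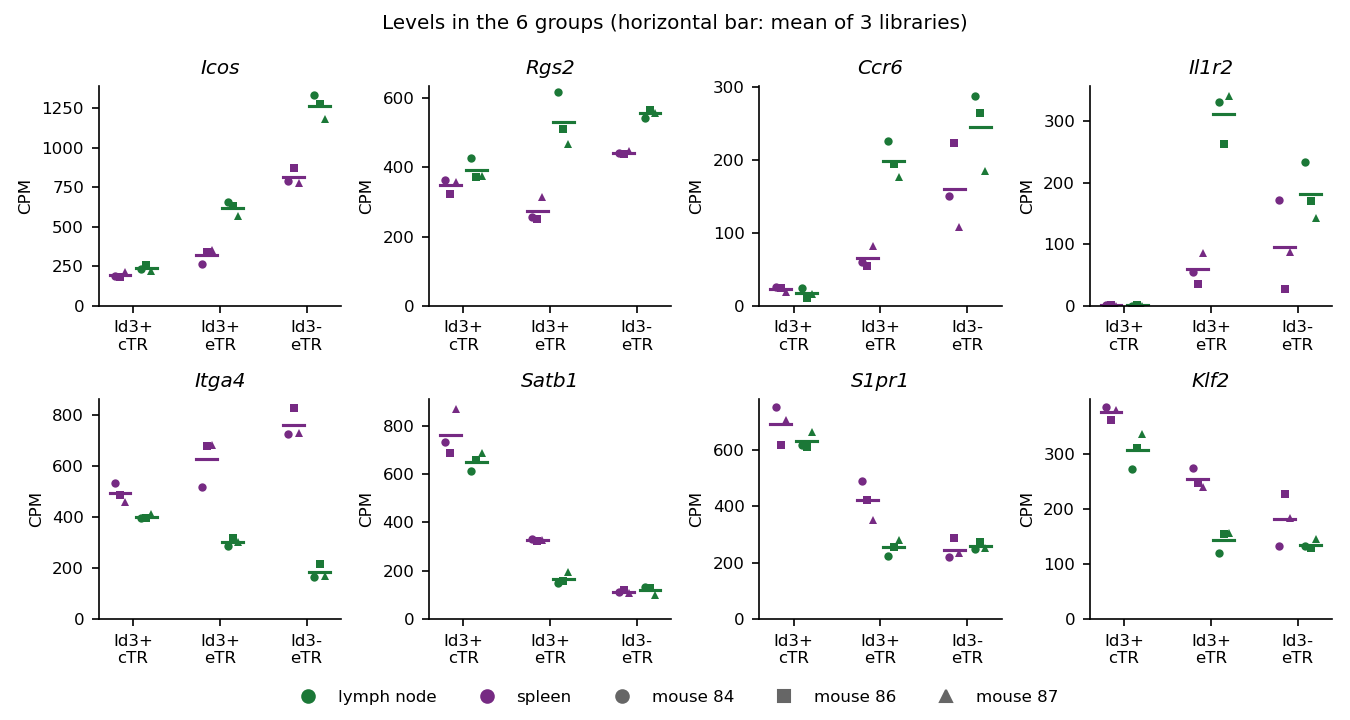
CPM of 8 called genes is shown in the 6 groups, with purple points for spleen, green points for lymph node, a marker shape for each mouse and a bar at the mean of 3 libraries. Icos points are higher in lymph node in all 3 populations, though the Id3+ cTR difference was not called (0.29 ± 0.11, edgeR adjusted p = 0.504). The Satb1 points of the tissues separate in Id3+ eTR and lie together in Id3- eTR.

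Cell division genes did not pass the test. Of 32 proliferation genes 0 were called, 6 lay wholly above in lymph node (7.14% of all tested genes) and 0 wholly below (6.63%). Their median was 1.44 in the fit. By mouse the median was 2.32, 0.43 and 0.24 in mice 84, 86 and 87, so mouse 84 had most of it. Without the spleen library of mouse 84 the fitted median was 1.32. In the fit of all libraries 26 of the 32 genes had a log2 difference above 0 and 6 below. Mki67, the marker of cycling cells, was at 73.1, 22.8 and 30.1 CPM in lymph node, where mouse 84 was far above the others, and 10.7, 10.6 and 11.7 CPM in spleen (1.92 ± 0.46, adjusted p = 0.0943). Of 26 tested sterol and fatty acid genes 0 were called, 9 lay wholly below and 2 wholly above, with a median of -0.50. Sqle, squalene epoxidase of cholesterol synthesis, was at 19.6, 9.66 and 15.9 CPM against 85.4, 54.5 and 31.1 CPM (-1.93 ± 0.41, adjusted p = 0.0608, or 0.0435 with the block). Of 26 glycolysis genes 1 was called, Pdk1, beside 0.289% of all tested genes, and their median was 0.01. Of 33 nuclear-encoded respiratory chain genes 0 were called, and their median was 0.61 in mouse 84 against -0.03 and -0.02 in mice 86 and 87.

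Genes known to respond to cell handling were examined next. Of 39 immediate-early genes tested 2 were called higher (Rgs2 and Rgs1) and 1 lower (Klf2), beside 0.112% and 0.177% of all tested genes. In that list 6 lay wholly above and 10 wholly below, beside 7.14% and 6.63% of all tested genes. Its median was -0.14. Jun, a subunit of AP-1, was at 311, 314 and 366 CPM in lymph node and 596, 479 and 476 CPM in spleen (-0.65 ± 0.14, adjusted p = 0.0652), while Cd69, the early activation antigen that retains cells by removing S1PR1, was at 505, 425 and 409.9 CPM against 249, 349.6 and 338 CPM (0.52 ± 0.12, adjusted p = 0.08). Egr1 was at 102, 104 and 92.4 CPM against 340.1, 158 and 119 CPM, highest in spleen of mouse 84 (-1.05 ± 0.31, adjusted p = 0.195). Thus Jun and Egr1 had lower values in lymph node and Cd69 a higher value, and none of the 3 passed. Of 24 heat shock genes 0 were called. Hspa1b, an inducible chaperone, was at 25.3, 66.9 and 67.2 CPM against 148, 231 and 221 CPM (-1.90 ± 0.52, adjusted p = 0.156). With mouse as a block Hspa1b passed at -2.03 (adjusted p = 0.00207), and so did its near-identical neighbour Hspa1a (adjusted p = 0.0436, against 0.288 without the block). Klf2, Rgs1 and Rgs2 belong to the immediate-early list, and the part of handling in their differences was not tested.

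Hemoglobin transcripts were nearly absent from lymph node and present in spleen. The 4 adult globin genes summed to 0.478, 0 and 0 CPM in lymph node of mice 84, 86 and 87 and to 113, 134 and 3.11 CPM in spleen, with mouse 87 far below the other spleen libraries. Hbb-bs was at least 92.9-fold lower in lymph node (adjusted p = 0.0857), Hba-a1 at least 31.8-fold (adjusted p = 0.119) and Hba-a2 at least 26.4-fold (adjusted p = 0.228), each with 3 counts over the group in place of 0. Hbb-bt was 182-fold lower, with a 95% counting interval of 32.3 to 7236 (adjusted p = 0.217). These copies are near identical, and the 4 genes did not pass the test. Of 13 erythroid markers tested 0 were called, 4 lay wholly below in lymph node (6.63% of all tested genes) and 1 wholly above (7.14%). The summed level of the whole list was 308 to 381 CPM in lymph node and 343 to 529 CPM in spleen. Of 18 erythroid markers in the table, 8 were at 0 in all lymph node libraries, Hba-a1, Hba-a2, Hbb-bs, Slc4a1, Car1 and Rhag among them, and 2 in all spleen libraries (Car1 and Rhag). Slc40a1, the iron exporter ferroportin, was called: it had 0 counts in lymph node and 16.1, 9.36 and 21.8 CPM in spleen, at least 40.0-fold lower (adjusted p = 0.0464, or 0.0727 with the block). In spleen of mouse 87, where the globin sum was 3.11 CPM, Slc40a1 was at its highest. In spleen it averaged 22.4 ± 6.31 CPM in Id3- eTR and 0.650 ± 1.13 CPM in Id3+ cTR. Markers of the myeloid list that macrophages express went both ways, many with low counts. Over the 3 libraries of a tissue, Csf1r had 1 count in lymph node and 26 in spleen, Adgre1 1 and 29 and Cd5l 0 and 9. C1qa had 33 and 31, C1qb 84 and 152, C1qc 33 and 100 and Hmox1, the heme-degrading enzyme, 99 and 172. Mpeg1 (18 and 0), Cd14 (8 and 1) and Spi1 (33 and 23) had more in lymph node. Of the 28 markers in the whole myeloid list, 12 had a higher mean CPM in lymph node and 10 a lower one. The part of macrophage RNA in the difference of Slc40a1 was not tested.

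**Figure D5:**
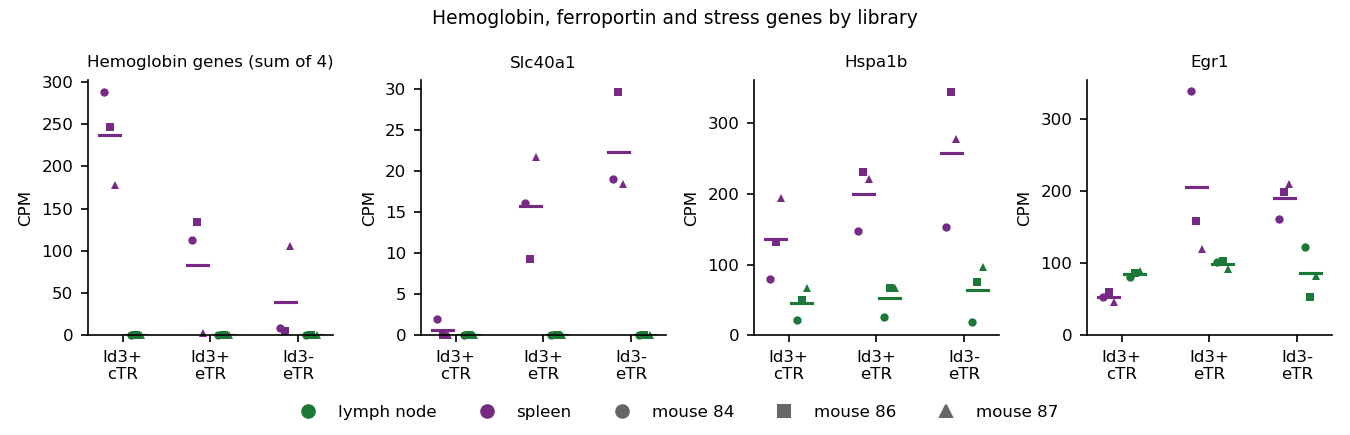
CPM of the 4 hemoglobin genes together, of Slc40a1, Hspa1b and Egr1 is shown in the 6 groups, drawn as in the plot of 8 called genes. Hemoglobin is at or near 0 in all lymph node libraries, and within spleen Id3+ eTR it is 113 and 134 CPM in mice 84 and 86 and 3.11 CPM in mouse 87.

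Some markers of other cells were detected in both tissues. The summed CPM of 21 B cell markers was 1354 to 1644 in lymph node and 1156 to 1414 in spleen, and 0 of the 18 tested were called. The 28 myeloid and dendritic markers summed to 254 to 591 CPM in lymph node and 222 to 374 in spleen, with Itgax, Siglech, S100a8, S100a9, Retnlg and Csf3r at 0 in all 6 libraries and 0 of 15 tested called. By mean CPM 12 of the 28 were higher in lymph node and 10 lower, with Csf1r, Adgre1, Cd5l, C1qb, C1qc and Hmox1 among those lower and Mpeg1, Cd14 and Spi1 among those higher. Lyz2, a lysozyme of myeloid cells, was at 201, 53.3 and 190.1 CPM in lymph node and 2.68, 0 and 58.3 CPM in spleen, overlapping in range (2.87 ± 1.08, adjusted p = 0.317). Lyz1, a related lysozyme gene, was at 90.8, 4.25 and 0.346 CPM in lymph node and 0 in spleen, nearly all of it in mouse 84. The 14 CD8 T and NK cell markers summed to 187 to 421 CPM in lymph node and 131 to 170 CPM in spleen, without overlap, and Ncr1, Gzmk, Klre1 and Klra8 were at 0 in all 6. Nkg7, a granule protein of that list, was at 134, 101 and 163 CPM against 40.9, 48.8 and 50.1 CPM (1.51 ± 0.33, adjusted p = 0.0639, or 0.0475 with the block). Nkg7 and Ccl5 (615 counts in lymph node and 145 in spleen) made up most of the excess of that sum in lymph node, and 4 of the 14 had a lower mean CPM there: Eomes (0 and 38), Klrb1c (28 and 79), Prf1 (65 and 98) and Cd8a (166 and 241). Platelet markers summed to 27.7 to 37.0 CPM in lymph node and 42.7 to 84.1 CPM in spleen. Most of that sum was Itgb3 (224 and 433 counts), which was not called (-0.84 ± 0.24, edgeR adjusted p = 0.166). By mean CPM 5 of the 8 platelet markers were lower in lymph node, 1 was higher and 2 were at 0 in all 6 libraries. Stromal and endothelial markers summed to 117 to 159 CPM in lymph node and 173 to 190 CPM in spleen. Nearly all of the stromal and endothelial sum was Pecam1, an adhesion molecule that leukocytes also carry (1023 and 1439 counts), and 8 of those 15 markers were at 0 in all 6 libraries. Plasma cell markers summed to 262 to 356 and 227 to 321 CPM, most of it Xbp1 (2243 and 1946 counts). Jchain (37 and 197) and Mzb1 (6 and 23) had fewer counts in lymph node. Derl3, a secretory-pathway gene in that list, was at 14.3, 11.6 and 18.3 CPM in lymph node and 0 in spleen, at least 39.9-fold higher (adjusted p = 0.0639). The part of these cells in the tissue differences above was not tested.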

How the data were processed

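The authors deposited a table of whole-number counts per gene, with no normalization, for the 18 libraries. The submitters' processing notes name Bowtie, TopHat and HTSeq 0.4.1. No build of the genome is named in the sources used here. Symbols came from GENCODE M21 for 32919 of 37991 identifiers, and the 5072 without one held 0.891% of counts. A second deposited table, of normalized values, was not used.

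From the counts, 12445 genes passed filterByExpr (minimum count 10). Libraries were scaled by TMM and fitted with edgeR 4.0.16 in R 4.3.3 (robust quasi-likelihood, two-sided F test, 6 groups as terms, 12 residual degrees of freedom), with Benjamini-Hochberg adjustment over all genes and calls at an adjusted p under 0.05. CPM use TMM-scaled totals, and list medians by mouse use log2 CPM with a prior count of 2. The biological coefficient of variation was 0.294. Intervals and fold bounds cover counting error only. The scripts were tested on simulated data. P-values rest on the spread within the 6 groups, pooled over all 18 libraries. The same 3 littermates gave every group, and the main fit holds no mouse term, so their libraries were treated as independent.

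Each mouse gave both tissues, so the libraries are paired by animal. The deviations of its lymph node and spleen libraries from their group means correlated by -0.031, -0.00033 and 0.036 in mice 84, 86 and 87. The value with mouse as a block stands beside each result whose call it changed.

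The members, lists and tests were chosen with earlier results of these data known. Named by rule were the sort, Id and E protein genes, from each of 30 lists up to 3 called members or the 1 with the smallest p, and the 15 largest called differences each way whose mean log2 CPM reached 2. The other 7 called genes (Gimap8, Epdr1, Nfatc3, Cyfip2, Ablim1, Spn and Ddx42), the globin genes, markers of other cells given by their counts, Ahcyl2, Ccr7, Cd69, Coro2a, Egr1, Hspa1a, Hspa1b, Irf2bp2, Itgae, Jun and Lyz2 were named after their values were seen. Values of some listed genes are not reported here.

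Alternatives were RLE size factors, TMM without stress, erythroid, ribosomal and mitochondrial genes, no filter, DESeq2 1.42.0, limma-voom (limma 3.58.1) with and without quality weights, the block, fits on the compared groups only, and leaving out each library.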

Additional observations from a re-analysis of the deposited data

Results flagged for a closer look

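Among 60 genes examined against the other populations (120 gene and population pairs), 12 pairs from 10 genes had all 3 mice moving one way between the tissues in Id3+ eTR and all 3 the opposite way in the other population. The genes examined were the called and named ones, chosen in large part by their tissue difference in Id3+ eTR. How often such opposite movement occurs among all tested genes was not counted, so the 12 pairs are not read as an excess. None of the differences passed the interaction test (edgeR quasi-likelihood, adjusted p from 0.114 to 0.458).

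Against Id3- eTR, the log2 tissue difference (lymph node minus spleen) of Tox was 0.61 in Id3+ eTR and -0.08 in Id3- eTR, 0.70 apart (adjusted p = 0.158). Bhlhe40 went from 1.26 to -0.41, a gap of 1.67 (adjusted p = 0.134). For Spn, the sialomucin CD43, the values were -0.63 and 0.30, a gap of -0.92 (adjusted p = 0.114). Cd40lg, the ligand of CD40, had a gap of 1.01 and Gbp3, an interferon-induced GTPase, one of -0.86.

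Against Id3+ cTR, Ccr6 had 1.61 in Id3+ eTR and -0.45 in cTR, a gap of 2.06 (adjusted p = 0.245), and Nkg7 1.51 and -0.87, a gap of 2.38 (adjusted p = 0.225). Pdk1 had -0.87 and 0.27, a gap of -1.14 (adjusted p = 0.245). The gap was 1.51 for Itgb8, 0.96 for Cd40lg, -1.20 for Gbp3 and 1.18 for Cd74, the invariant chain of MHC class II that B and myeloid cells also express.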

How the results depend on the processing

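The 36 calls varied with the test and the libraries more than with the scaling. RLE size factors gave 32, TMM without stress, erythroid, ribosomal and mitochondrial genes 31, limma-voom 36 (27 of them among the 36) and limma-voom with quality weights, which gave the spleen library of mouse 84 a weight of 0.207, 31. No filter on low counts gave 62 and DESeq2 202. Fits on the compared groups only gave 0, and 0 again with the replicate block, where fewer libraries inform the spread. With the replicate block (mouse) in the fit of 18 libraries, which pairs the tissues of an animal, 30 genes were called, 24 of them among the 36, and the others were Hspa1b, Itgae, Sqle, Hspa1a, Nkg7 and Ctsw. Leaving out single libraries gave 5 to 46.

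No gene of the 36 reversed direction under any alternative, and 8 stayed called without spleen of mouse 84, where Anxa2 and Phlpp1 were called as well. For the difference from the tissue effect of Id3- eTR (0 called), no filter gave 4, DESeq2 29, limma-voom 1 and quality weights 3, and leaving out single libraries 0 to 5 (5 without lymph node Id3- eTR of mouse 87). For the difference from that of Id3+ cTR (0 called), DESeq2 gave 66, leaving out single libraries 0 to 1, and the other alternatives 0. Replicate block fits gave 0 in both. Why the counts moved was not tested. With 3 mice a group, genes with few counts are known only as bounds.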
